A study of Anguilla anguilla with 24 samples.

Results

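Brains of European eels (Anguilla anguilla) fed gold nanoparticles were compared with brains of control eels by RNA sequencing. The members were chosen by their labels alone. They are the 12 brain libraries of the 24 libraries in the series, 6 from gold-fed eels (eels 7 to 12) and 6 from controls (eels 1 to 6), and all contigs of the count table were kept. Gold-fed eels were given particles of metallic gold in their food over 21 days, and control eels were kept under control conditions. The sources used here give neither the size and dose of the particles, nor the age and origin of the eels, nor their tanks. P-values set the difference between groups against the spread between individual eels. If the groups were kept apart, an effect of keeping cannot be told apart from one of gold. Each of the 12 eels also gave a liver library, which is used below where it bears on a brain value.

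Nanoparticles that reach cells are commonly taken in by endocytosis and carried to endosomes and lysosomes, compartments that also host the signalling complexes which tie nutrient state to growth. In the brain, neurons and glia sit behind a barrier of tight vessels, and microglia are the resident macrophages that answer to foreign material and damage. Bony fishes carry many pairs of related gene copies from an ancestral duplication of their genome, so that the name of a gene often stands for several transcripts.

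A contig is an assembled transcript sequence. Where several contigs carry the same gene label, the label is followed by a copy number and the number of copies, so that lamtor3.3.4 is copy 3 of the 4 contigs labelled lamtor3. Such contigs can be isoforms, alleles, gene duplicates or fragments, which cannot be told apart here, and reads of a gene can be split between them. Of 50640 contigs, 49830 had enough reads in brain to be tested. Control brains held 66.0 to 85.3 M counted reads (M, mega) and gold-fed brains 79.3 to 116 M, a difference of 18.83 M (two-sided exact permutation p 0.03247). Levels are CPM, reads per mega of counted reads, scaled between libraries. At these depths 1 read is worth about 0.01 CPM, and the spread between eels set the precision (median coefficient of variation per contig 19.05% in control and 20.16% in gold-fed brains, over 43262 contigs of at least 1 CPM). Markers of neurons summed to between 3799 and 4583 CPM in every brain, and contigs named for snap25, syt1, elavl3, elavl4 and nefl, defining markers of neurons, were all measured. In tissue of mixed cells, fewer cells of a type and less RNA per cell cannot be told apart.

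A single contig rose in gold-fed brains, out of 49830 tested (0.00201%), and no contig fell (0.0%). It was LOC106611841.2.3, a copy of a locus without a gene name. Control brains 1 to 6 held 0.112, 0.0117, 0.0234, 0.0303, 0.0126 and 0.0597 CPM of it, and gold-fed brains 7 to 12 held 3.56, 3.67, 1.61, 3.02, 2.32 and 1.66 CPM. All 6 gold-fed brains lay above all control brains, at 130 to 388 reads against 1 to 8 reads. The log2 fold change was 5.97 (SE 0.48, edgeR quasi-likelihood test with Benjamini-Hochberg adjustment, adjusted p 0.00104). Its call was kept in each of the 12 fits that left out 1 brain and with library depth as a covariate (adjusted p 0.0189). The other contigs of the label did not pass. LOC106611841.1.3, with the most reads, ranged from 8.72 to 12.2 CPM in controls and from 8.48 to 15 CPM in gold-fed brains. LOC106611841.3.3 ranged from 3.41 to 10.9 CPM (median 7.64) and from 1.41 to 7.03 CPM (median 2.03), with the groups overlapping (log2 fold change -1.34, and -0.72 with the depth covariate). The risen contig took 0.066 to 0.567% of the reads of its label in control brains and 6.83 to 23.4% in gold-fed brains, while the sum over the label differed by a log2 fold change of -0.03.

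Beyond this contig, edgeR gave 3863 contigs an unadjusted p below 0.05 (7.75%), of which 1677 (3.37%) had higher and 2186 (4.39%) lower values in gold-fed brains. These shares are the background against which the counts below are read. Depth differed between the groups. With library depth as a covariate 2409 contigs had such a p (4.834%), 1085 with higher and 1324 with lower values, and 1291 of them were among the 3863. Counts given below with this covariate are read against these. With reads thinned to the smallest brain total 3853 contigs had such a p. DESeq2 called 178 contigs (0.357%), 71 higher (0.142%) and 107 lower (0.215%), of which 45 carried a gene or protein name and 103 did not overlap between the groups. Over all contigs, 111 (0.223%) had every gold-fed brain above every control brain and 147 (0.295%) had every gold-fed brain below, 258 in all (0.518%).

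Among contigs with a gene or protein name, the 12 with the smallest p on the higher side came from several cellular systems, and none of them passed in edgeR (adjusted p 0.329 to 0.579). The smallest p belonged to lamtor3.3.4, named for a subunit of the Ragulator scaffold that docks the growth kinase complex mTORC1 on lysosomes. It had 3.58, 2.2, 2.95, 4.13, 7.13 and 2.97 CPM in control brains 1 to 6 and 12.9, 7.80, 13.5, 20.7, 14.9 and 7.50 CPM in gold-fed brains 7 to 12. The groups did not overlap, with control brain 5 just below gold-fed brain 12 (log2 fold change 1.75, SE 0.32, edgeR adjusted p 0.329). The others can be grouped by their known roles. For the nucleus, snapc5 encodes a subunit of the complex that starts transcription of small nuclear RNAs. Control brains held 64.4 to 78.4 CPM of it (median 75.6) and gold-fed brains 84.4 to 94.0 CPM (median 88.9), without overlap (log2 fold change 0.27, SE 0.06). The androgen receptor contig ar-beta, a steroid-activated transcription factor, had 31.4 to 41.9 CPM (median 37.2) and 42.9 to 56.9 CPM (median 46.3), again without overlap (0.35, SE 0.09). It lay highest in gold-fed brain 12, at 56.9 CPM.

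For membranes and vesicles, YIPF1, a protein of Golgi membranes, had 15.4 to 18.7 CPM in control brains (median 18) and 20.1 to 22.9 CPM in gold-fed brains (median 21.0), without overlap (log2 fold change 0.27, SE 0.07). The trafficking GTPase contig rab31.2.2 had 49.7 to 57.6 and 57.9 to 72.1 CPM (0.26, SE 0.07), and its groups were separated by a narrow gap. The Golgi ceramidase contig acer2.2.4 had 18.2 to 20.5 and 20.3 to 28.5 CPM (0.35, SE 0.09), with 5 of 6 gold-fed brains above every control. The contig ptprn.1.2, for a protein of secretory granule membranes, had 65.6 to 87.8 and 82.8 to 119 CPM (0.43, SE 0.10), with 5 of 6 gold-fed brains above every control. In metabolism, fam162a, a mitochondrial protein known from the response to low oxygen in mammals, had 62.8 to 72.0 CPM (median 68.3) and 74.2 to 88.9 CPM (median 79.6), without overlap (0.24, SE 0.06). The guanylate kinase contig guk1.1.2 had 20 to 29.3 and 28.8 to 38.5 CPM (0.50, SE 0.11). The contig sat1.2.2, for the acetyltransferase that starts polyamine breakdown, had 20.9 to 27.1 and 24.3 to 32.4 CPM (0.35, SE 0.09). The last pair showed an uneven spread among gold-fed brains. The contig r3hdm4.3.3 held 17.1 to 20.8 CPM in controls, and 36.5, 20.4, 36.6, 37.4, 21.4 and 26.4 CPM in gold-fed brains 7 to 12. CD048.2.3 held 15.5 to 41.3 CPM in controls against 34.3 to 127 CPM in gold-fed brains, and its log2 fold change of 1.20 was 0.92 without gold-fed brain 10.

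On the lower side, the 12 named contigs with the smallest p again held none that passed in edgeR (adjusted p 0.165 to 0.566). Of them 10 had no overlap between the groups, against 0.295% of all contigs on this side. A choice by small p on the same values favours contigs without overlap, so this count is no separate result. First by p was mapre3.3.4, named for the end-binding protein EB3 that rides growing microtubule tips. Its level was 21.2, 18.3, 20.3, 17.5, 15.1 and 14.9 CPM in control brains and 11.6, 10.7, 11.5, 11.7, 11.4 and 11.9 CPM in gold-fed brains. Gold-fed brains lay close together below all controls (log2 fold change -0.64, SE 0.10, edgeR adjusted p 0.165). The other 3 contigs of this label had log2 fold changes between 0.02 and 0.19, and the sum over the label -0.04. The kinesin light chain contig klc2.2.3, whose product links cargo to the microtubule motor, had 90.2, 53.1, 51.9, 54.7, 43.1 and 38.7 CPM in controls and 25.7, 35.6, 30.9, 18.5, 38.3 and 26.8 CPM in gold-fed brains. Its groups were divided by a gap of less than 1 CPM, and control brain 1 stood far above the rest (log2 fold change -0.92, SE 0.22, and -0.72 without control brain 1).

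The clock gene contig per3.3.5, for a repressor of the circadian feedback loop, had 25.0, 23.3, 38.6, 49.7, 21.3 and 30.7 CPM in control brains and 15.1, 11.0, 13.3, 13.8, 15.5 and 11.8 CPM in gold-fed brains. The groups did not overlap, and control brain 4 was highest (log2 fold change -1.23, SE 0.20, edgeR adjusted p 0.208). Unlike mapre3, the label as a whole also had lower values. Summed over its 5 contigs, per3 had a log2 fold change of -0.37 (SE 0.10, edgeR unadjusted p 0.00263, adjusted p 0.578). Of the other per3 contigs, per3.4.5 had -0.82, which was -0.43 without control brain 4, and per3.2.5 had -0.21. The contig per3.5.5 held 1.82 CPM in control brain 4, 39.4 to 50.2 CPM in the other control brains and 31.7 to 56.0 CPM in gold-fed brains (0.15, and -0.10 without control brain 4).

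Endocytic genes were also present. The contig appl2 encodes an adaptor of early endosomes, and had 0.656 to 1.08 CPM in controls (median 0.697) and 0.203 to 0.518 CPM in gold-fed brains (median 0.358), without overlap (log2 fold change -1.10, SE 0.24). The early endosome GTPase contig rab5c.2.4 had 82.9 to 105 CPM and 66.3 to 78.6 CPM, without overlap (-0.31, SE 0.07). The contig rab24.1.4, for a GTPase linked to autophagy, was rare, at 0.119 to 0.44 CPM and 0.00872 to 0.104 CPM (-1.99, SE 0.46), or 1 to 35 reads per brain. At the mitochondrion, tspo.2.2, for the outer membrane translocator protein that is used in mammals as a label of reactive glia, had 10.7, 24.8, 14.1, 13.1, 14.1 and 9.04 CPM in controls and 8.31, 5.56, 7.31, 5.81, 7.97 and 4.16 CPM in gold-fed brains. Every gold-fed brain lay below every control, and control brain 2 stood apart (log2 fold change -1.13, SE 0.24, and -0.90 without control brain 2). SUMO3, a small protein that is attached to other proteins, had 5.04 to 10.9 CPM (median 6.63) and 0.792 to 3.75 CPM (median 2.66), without overlap (-1.44, SE 0.32). The water channel contig aqp11.2.2 had 2.98 to 4.57 and 1.90 to 2.90 CPM (-0.63, SE 0.14), and kiaa1107.2.2 had 1.92 to 4.07 and 1.01 to 1.69 CPM (-1.09, SE 0.21), both without overlap. The ribosomal protein contigs RPS26.3.3 (-0.81, SE 0.17) and RL36A.1.4 (-0.99, SE 0.22) each had 5 of 6 gold-fed brains below every control. Of these 24 named contigs, DESeq2 called 18, against 0.357% of all contigs. The 24 were chosen by edgeR p on the same counts. All 178 contigs that DESeq2 called had an edgeR unadjusted p below 0.05, so a high count among the 24 follows largely from their choice. Among contigs without a gene name, contig_14544 had 0.346 to 0.854 CPM in controls against 1.11 to 2.80 CPM in gold-fed brains, without overlap (log2 fold change 2.19, edgeR adjusted p 0.0816, and 0.0115 to 0.292 with 1 brain left out). For contig_24023 the fold change was 1.15, for contig_22698 -0.97, and neither overlapped between groups.

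**Figure D1:**
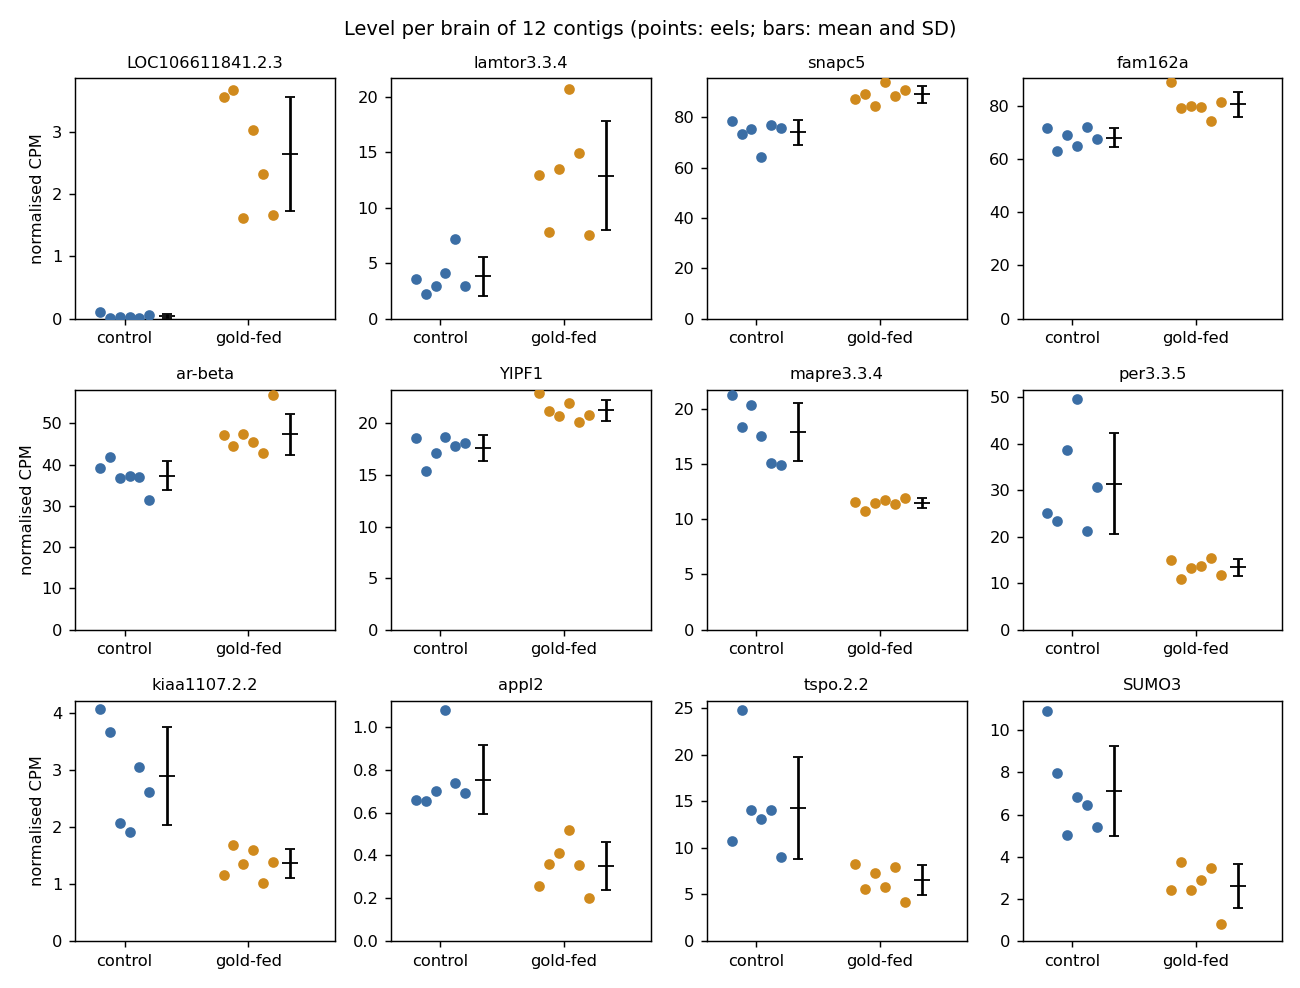
Normalised CPM per brain (vertical axis, from 0) for LOC106611841.2.3, the only contig that passed, and 11 named contigs among those of smallest p. Points are eels, and black bars are the mean and SD of 6 brains. The 11 were taken from contigs whose groups do not overlap, so the separation of the groups in their panels follows from that choice. The gap is narrow for several of them, among them lamtor3.3.4.

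Many of these contigs are copies of a label whose other copies did not move the same way, so the share of a label's reads held by each contig was tested next. Of 4924 labels with at least 2 contigs tested, 22 (0.447%) differed in copy usage between gold-fed and control brains (edgeR diffSpliceDGE F test over the contigs of a label, Benjamini-Hochberg adjusted), and 14 of these had a gene or protein name. The F test treats contigs of a label as independent, and with the Simes adjustment, which asks for a single strong contig, 2 labels passed (0.0406%), LOC106611841 and lamtor3. In the 12 fits without 1 brain, 5 to 28 labels passed, and 3 of the 22 passed in every one, namely LOC106611841, lamtor3 and LOC103372676. Summed over their contigs, 0 of the 22 labels passed and 4 had an unadjusted p below 0.05 by edgeR.

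In lamtor3 the shares of the contigs differed between the groups, while their sum differed by less than the spread between eels. The share held by lamtor3.3.4 was 7.01, 4.72, 6.47, 9.86, 16.6 and 7.28% in control brains and 28.1, 17.1, 28.5, 47.4, 30.6 and 16.2% in gold-fed brains. The share held by lamtor3.2.4 was 31.1 to 53.7% in controls and 14.2 to 34.1% in gold-fed brains. The first share was higher in gold-fed brains apart from an overlap of control brain 5 with gold-fed brain 12, and the second was lower with some overlap (copy usage adjusted p 6.01e-05). The sum over the label was 44.8 ± 3.74 CPM in controls against 46.2 ± 1.78 CPM in gold-fed brains (SD, n = 6, log2 fold change 0.04). The locus LOC103372676, without a gene name, showed the same kind of exchange at a higher level. Its contig LOC103372676.2.3 had 55.9 to 87.6 CPM in control brains and 87.8 to 132 CPM in gold-fed brains, and LOC103372676.3.3 had 181 to 218 and 126 to 158 CPM. Neither contig overlapped between groups, and the sum differed by a log2 fold change of -0.01 (copy usage adjusted p 0.000459).

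For most of the other named labels that passed, a minor contig held a smaller share in gold-fed brains. Examples were kiaa1107.2.2 (10.9 ± 3.36% of its label's reads in controls and 5.26 ± 1.23% in gold-fed brains), AT7L3.2.4 (9.48 ± 2.31% and 5.52 ± 1.37%), wdr33.1.3 (6.76 ± 2.01% and 3.56 ± 1.14%) and impa1.2.2, for the enzyme that frees inositol from its phosphate (5.16 ± 0.691% and 3.38 ± 0.272%). Rarer contigs were znf711.2.6 (1.58 ± 0.65% and 0.519 ± 0.409%), rab24.1.4 (0.394 ± 0.223% and 0.097 ± 0.0518%) and mtor.1.2, a rare contig of the growth kinase mTOR (0.422 ± 0.204% and 0.132 ± 0.0921%). The copy usage calls of rab24 and znf711 were lost where contigs needed at least 1 CPM in 6 brains (adjusted p 0.968 and 0.974), and that of rab24 also with thinned reads (0.967). The contig mtor.1.2 had 2 to 35 reads per brain, so mtor could not be tested under that filter. It passed in 5 of the 12 fits without 1 brain. In RPS26 it was the contig with the most reads, RPS26.3.3, that held a smaller share, at 66.8 to 75.4% in controls and 53.9 to 65.2% in gold-fed brains, without overlap. In npc1l1, named for an intestinal cholesterol uptake protein of mammals, the main contig npc1l1.4.4 ranged from 185 to 813 CPM in controls and from 116 to 207 CPM in gold-fed brains, with a control median of 214 CPM. Neither mapre3 nor per3 passed for copy usage (adjusted p 0.365 and 0.434).

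The livers of the same eels were then read for the same labels, a step chosen after the brain values were seen. Of the 22 labels, 19 could be tested in liver, 8 had an unadjusted p below 0.05 for copy usage there (against 6.962% of 4338 labels in liver), and 1, lamtor3, passed in liver too (edgeR adjusted p 0.000659). Among labels with a gene or protein name, only lamtor3 and RS20 (0.00569) had such a p in liver. By the same test kiaa1107, AT7L3, wdr33, impa1, znf711, rab24 and RPS26 had unadjusted p of 0.542 to 0.965 in liver, so their brain differences were not seen there. Livers and brains come from the same 12 eels, so the liver is no independent sample of fish. In each eel the share of lamtor3.3.4 was close in both tissues. It was 7.75, 5.51, 7.71, 8.28, 16.6 and 8.79% in control livers and 22.7, 16.2, 28.2, 41.1, 29.4 and 16% in gold-fed livers, so that control eel 5 was the highest control and gold-fed eel 10 the highest of all in brain and in liver alike. The share of LOC103372676.2.3 was 20.3 to 30% in control brains and 34.9 to 50.0% in gold-fed brains, and 21.9 to 30.2% and 37.4 to 50.0% in the livers. Control eel 4 was lowest of all eels and gold-fed eel 11 lowest of the gold-fed eels in both tissues. For per3.3.5 the shares were 22.1 to 50.2% and 14.7 to 18.8% in brain, and 26.8 to 57.5% and 17.8 to 23.4% in liver, without overlap in either tissue and with control eel 4 highest in both. The contig LOC103353295.2.2, singled out after its values were seen, had a share of 18.2 to 38.7% and 37.7 to 63.9% in brain and of 17.3 to 39.7% and 41.1 to 60.5% in liver. The one contig that passed in brain, LOC106611841.2.3, had 0 reads in all 6 control livers and 4, 8, 0, 4, 10 and 2 reads in gold-fed livers 7 to 12, too few for a test in liver.

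**Figure D2:**
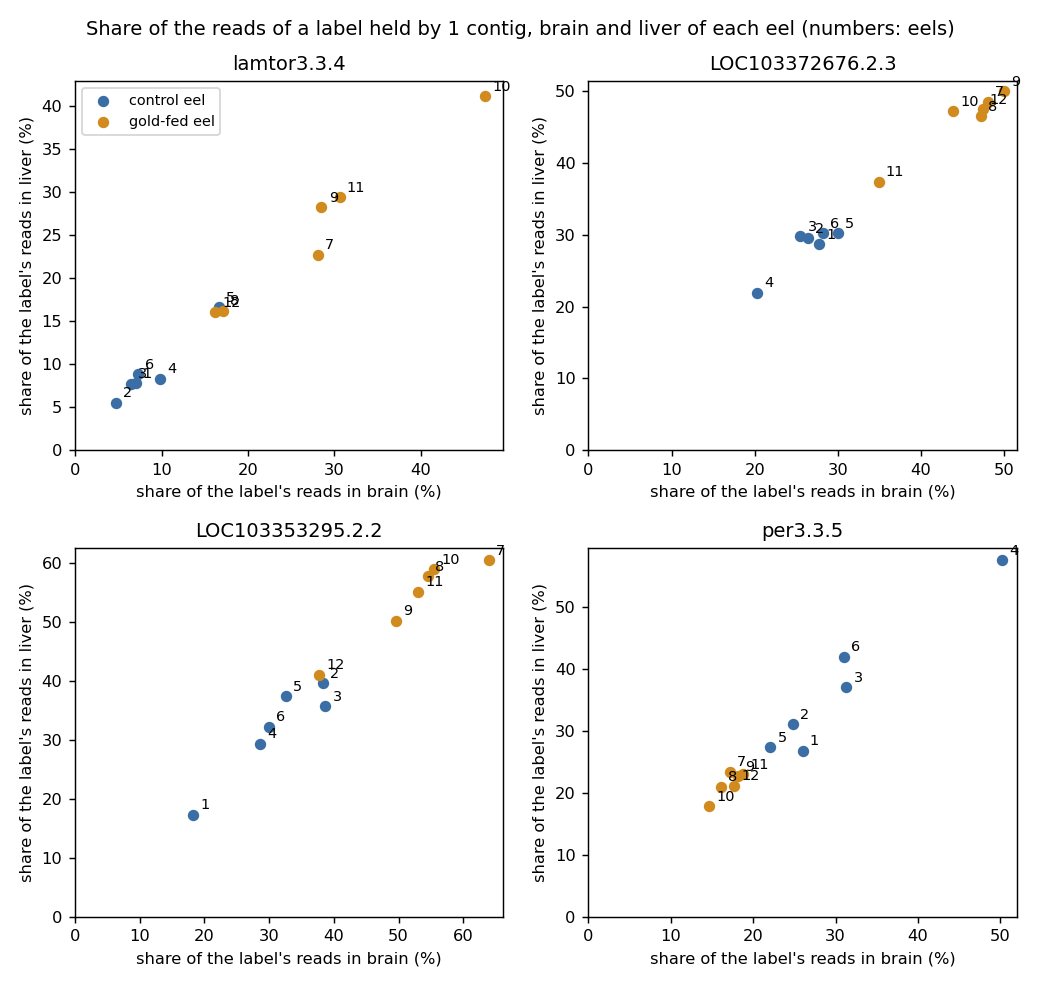
Share of a label's reads held by 1 contig in the brain (horizontal axis, %) and in the liver (vertical axis, %) of each eel, for 4 contigs. Each point is an eel and its number is printed beside it. In all 4 panels the eels keep nearly the same order in both tissues, and gold-fed eels lie mostly to the upper right for the first 3 contigs and to the lower left for per3.3.5.

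Of the 24 named contigs of smallest p in brain, 22 could be tested in liver. There 15 had a difference of the same sign as in brain and 7 of the other sign. Both tissues come from the same eels, and the share of all contigs with the same sign in both was not counted. Of the 22, 5 had an edgeR unadjusted p below 0.05 (against 8.403% of 41793 contigs in liver), all 5 with the sign of the brain. Besides lamtor3.3.4 these were 4 contigs with lower values. The log2 fold change in liver was -0.82 for klc2.2.3 (edgeR unadjusted p 0.00356), -0.59 for rab5c.2.4 (0.00478), -1.20 for SUMO3 (0.0103) and -1.13 for per3.3.5 (0.00198). None of these passed in liver (adjusted p 0.361 to 0.473). For snapc5, ptprn.1.2, fam162a and ar-beta, higher in gold-fed brains, the liver values were -0.18, -0.15, -0.10 and -0.30, with unadjusted p of 0.115 to 0.67. Estimates also lay apart for RPS26.3.3 (-0.81 in brain and -0.07 in liver), tspo.2.2 (-1.13 and -0.31) and kiaa1107.2.2 (-1.09 and 0.34). In the fit of both tissues described below, the difference between brain and liver did not pass for RPS26.3.3, tspo.2.2 or kiaa1107.2.2 (edgeR adjusted p 0.568 to 0.67). Nor did it pass for snapc5, ptprn.1.2, fam162a and ar-beta (edgeR adjusted p 0.384 to 0.83, lowest for ar-beta).

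Gene lists were described next by their counts and medians, beside all contigs, of which 50.0% had higher and 50.0% lower values in gold-fed brains with a median log2 fold change of 0.00. In every list, 0 contigs passed the adjusted threshold. Contigs of a list were measured in the same 12 brains, so their counts of higher and lower values are not independent results. The lists of immune cells and immune signalling lay toward higher values in gold-fed brains. Of 22 contigs of microglia and macrophage markers, 21 had higher values (median 0.40), with 1 of 22 at an unadjusted p below 0.05. That contig was cd68.2.2, for a lysosomal protein of macrophages, at 2.61 to 15.4 CPM (median 8.34) in controls and 4.92 to 38.8 CPM (median 15.7) in gold-fed brains (log2 fold change 1.24). The integrin contig itgb2.2.2 had 0.57 (0.89 with the depth covariate) and ptprc.5.6, for a phosphatase of all white blood cells, 0.72, with p above 0.05. Summed over the list, control brains 1 to 6 held 1307, 833, 750, 1327, 576 and 1141 CPM, and gold-fed brains 7 to 12 held 944, 1653, 1795, 402.5, 1311 and 1779 CPM. The groups overlapped, gold-fed brain 10 was lowest of all 12 brains, and without it the list median was 0.59. The list median was 0.276 without control brain 5 and 0.283 without gold-fed brain 12. Without gold-fed brain 12 the log2 fold change of cd68.2.2 was 0.94.

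Interferon response contigs had higher values for 21 of 24 (median 0.32), of which 2 had an unadjusted p below 0.05. They were MX1, an antiviral GTPase, at 4.18 to 9.13 and 6.03 to 34.8 CPM (log2 fold change 1.00, and 0.46 without gold-fed brain 12, the highest), and ifih1, a sensor of viral RNA, at 8.95 to 15.5 and 14.4 to 21.3 CPM (0.37). The list median was 0.19 without gold-fed brain 12. Of the cytokine, NF-kB and Toll-like receptor contigs, 18 of 22 had higher values (median 0.22), 3 at an unadjusted p below 0.05. These were the receptor-associated kinase irak4 (0.42), the NF-kB inhibitor nfkbia.1.2 (0.65) and the NF-kB subunit rela.2.2 (0.25). With depth as a covariate, 1 contig of this list was higher at such a p. The interferon list then had 4 higher and 1 lower. All 3 lists were lowest, among gold-fed brains, in brain 10 when taken as mean log2 CPM. By this measure the groups overlapped widely. Interferon contigs lay at 1.99 to 3.1 in controls and 2.09 to 3.17 in gold-fed brains. The cytokine, NF-kB and Toll-like receptor contigs lay at 2.26 to 2.83 and 2.14 to 3.17. Lymphocyte markers had 4 of 6 contigs higher (median 0.34, and 0.22 without gold-fed brain 9), and the lymphocyte sum of 8.89 to 15.7 CPM in controls against 6.81 to 22 CPM in gold-fed brains was smallest in gold-fed brain 10. By mean log2 CPM the lymphocyte list hardly differed, at 0.755 in control and 0.767 in gold-fed brains. Erythrocyte markers had 13 of 15 contigs lower (median -0.21, which was -0.11 without gold-fed brain 10, -0.47 without gold-fed brain 7 and -0.54 with the depth covariate), among them the haemoglobin contigs HBBC.3.3 (-0.82) and HBAC.2.2 (-0.87), with a sum of 591 to 1444 CPM in controls against 460 to 1785 CPM in gold-fed brains. The part of blood cells left in the tissue in these immune values was not tested.

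Astrocyte and radial glia markers had 12 of 15 contigs lower (median -0.14, and -0.06 without control brain 6), 3 at an unadjusted p below 0.05 and 1 with depth as a covariate. They were the calcium-binding s100b.1.5, at 467 to 1200 CPM in controls against 344 to 531 CPM in gold-fed brains (log2 difference -0.58, and -0.33 without control brain 4), the lipid-binding fabp7.1.4 (-0.48) and the gap junction contig CXA1.2.2 (-0.33, and -0.56 with the depth covariate). The list found 7 of its 19 symbols in the table, GFAP and fabp7 among its defining markers. Neuron markers were balanced, with 15 higher and 16 lower (median -0.01), as were contigs of the synaptic vesicle cycle (34 higher, 27 lower) and of glutamate receptors and transport (42 higher, 34 lower). GABA contigs had 15 of 21 higher (median 0.09), and the GABA-making enzyme contig gad2.2.2 had a median of 124 CPM in controls against 145 CPM in gold-fed brains, with overlap (log2 difference 0.20, edgeR unadjusted p 0.0431). Myelin markers had 5 contigs higher and 2 lower, or 2 higher and 5 lower with depth as a covariate, and endothelial markers 7 higher and 13 lower. Of the choroid plexus and ependyma contigs, 7 of 8 had lower values, and their sum stood at 866 CPM in control brain 3 and 198 CPM in gold-fed brain 10 against 46.7 to 74.0 CPM in the other brains. No contig of the pituitary hormone list was measured, and OTX2 was the only pineal and retinal name found.

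Contigs of protein synthesis, respiration and sterol synthesis lay toward lower values. Of 230 cytosolic ribosomal protein contigs tested (of 232 in the table), 155 had lower and 75 higher values (median -0.12, and -0.07 without gold-fed brain 11), with 46 lower and 3 higher at an unadjusted p below 0.05. Among them RS20.1.2 had 2.54 to 10.0 CPM in controls against 1.18 to 3.87 CPM in gold-fed brains (log2 difference -1.26), while the main contig of this label, RS20.2.2, had 284 to 381 and 275 to 360 CPM (-0.04). Summed CPM over the ribosomal list was 15370 to 18390 in controls and 14910 to 17800 in gold-fed brains. With depth as a covariate the count of lower contigs at an unadjusted p below 0.05 was 13 of 230, against 1324 of all 49830 contigs tested. Mitochondrial ribosomal proteins did not share the direction, with 51 contigs higher and 31 lower (median 0.05).

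Of 87 oxidative phosphorylation contigs, 67 had lower and 20 higher values (median -0.15), with 17 lower and 0 higher at an unadjusted p below 0.05, and 9 lower with depth as a covariate. The complex I subunit NDUFA6 had 2.47 to 3.45 CPM in controls against 1.6 to 2.4 CPM in gold-fed brains, without overlap (log2 fold change -0.49). The subunit contigs ndufb4.2.2 and ndufa2.2.2, had log2 fold changes of -2.39 and -0.65, both with overlap. The summed level was 2583 to 2838 CPM in controls against 2582 to 2750 CPM in gold-fed brains. Of 31 sterol contigs, 24 had lower values (median -0.19), with 8 lower at an unadjusted p below 0.05 and 1 such contig with depth as a covariate. INSI1, which holds back the sterol-sensing machinery, had 143 to 182 and 119 to 165 CPM (-0.24).

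Hormonal and rhythmic genes were mixed. Neuropeptide contigs had 19 of 22 higher values (median 0.28, and 0.17 with the depth covariate) with 0 at an unadjusted p below 0.05. The stress hormone contig crh.2.2 had 1.32 to 2.35 and 1.69 to 3.84 CPM (log2 fold change 0.44, and 0.28 without gold-fed brain 7), and the enkephalin precursor penk 63.8 to 114 and 74.9 to 125 CPM (0.31). By mean log2 CPM the list lay highest in gold-fed brains 8 and 7 and control brain 1, so brains of both groups shared the upper range. Targets of glucocorticoids had 16 of 24 higher (median 0.10, and 0.03 without gold-fed brain 10), 4 at an unadjusted p below 0.05. They included fkbp5, a chaperone of the glucocorticoid receptor, at 8.45 to 42.0 CPM in controls (median 17.4) and 14.9 to 120.0 CPM in gold-fed brains (median 38.9, log2 fold change 1.39). With depth as a covariate, 0 of these contigs had higher values at such a p. Besides per3, the clock list held the kinase contig KC1E.1.2, at 49.7 to 62.7 and 62.1 to 74.1 CPM (0.23), and the nuclear receptor contig nr1d1.1.2, a clock repressor, at 15.3 to 25.5 and 10.8 to 18.2 CPM (-0.48). Of its 22 contigs 14 had lower values (median -0.06). Immediate early genes had 10 higher and 16 lower, with 0 at an unadjusted p below 0.05.

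Lysosome, metal and stress lists had small medians, some of which moved further than 1.5 times when a brain was left out, as the plot of list medians shows. Lysosomal hydrolase and proton pump contigs had 29 of 45 higher (median 0.09), with the proton pump subunit contig VA0D1 at 226 to 260 CPM in controls against 270 to 301 CPM in gold-fed brains, without overlap (log2 fold change 0.18). The list of LAMTOR, Rag and mTOR had 20 contigs higher and 13 lower (median 0.04). Metal handling and oxidative stress contigs had 20 higher and 25 lower (median -0.08). There the glutathione transferase contig gstk1.3.3 had 6.16 to 12.9 CPM in controls against 2.54 to 5.54 CPM in gold-fed brains, without overlap (-0.94). In the same list gstk1.2.3 had -1.01, and gclm, a gene of glutathione synthesis, had 0.18. Heat shock and unfolded protein response contigs had 26 higher and 18 lower (median 0.04), and p53, DNA damage and apoptosis contigs 20 higher and 14 lower (median 0.05). Microtubule contigs were even, with 89 higher and 87 lower of 176, although the kinesin family contig kif26a.1.4 had 15.9 to 18.1 and 7.98 to 14.8 CPM without overlap (-0.58). Secretory granule contigs had 25 of 33 higher (median 0.07), 2 at an unadjusted p below 0.05 upward and ptprn2.2.3 downward (-0.65).

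**Figure D3:**
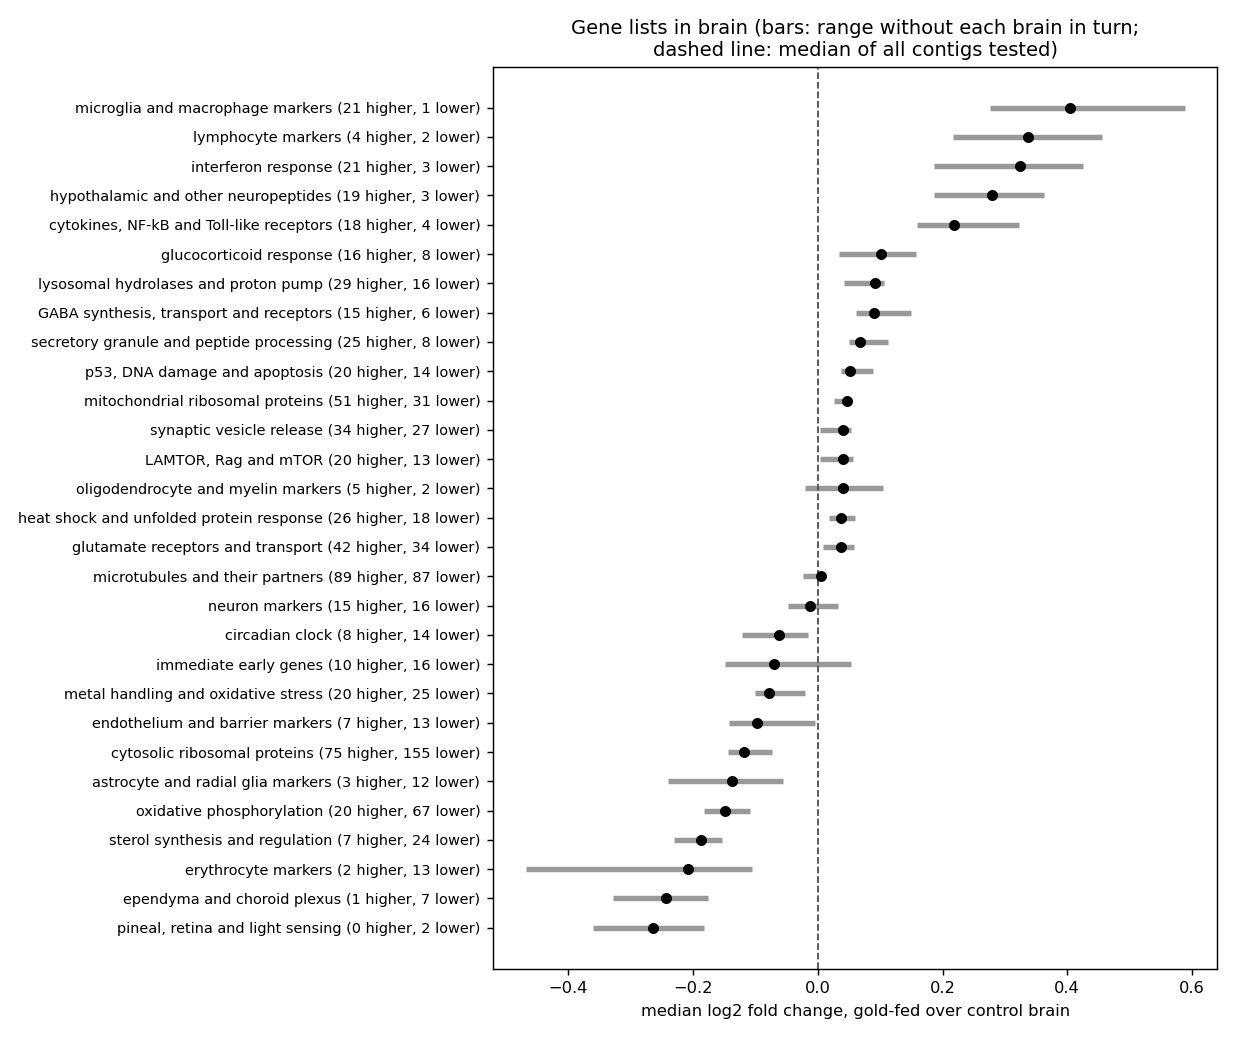
Median log2 fold change of gold-fed over control brain (horizontal axis) for each gene list, with the number of contigs higher and lower beside its name. Grey bars span the medians without each brain in turn, and the dashed line is the median of all contigs, 0.00. Microglia and macrophage markers lie highest, at 0.40, and the lists of at least 10 contigs that lie lowest are erythrocyte markers (-0.21) and sterol synthesis (-0.19).

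**Figure D4:**
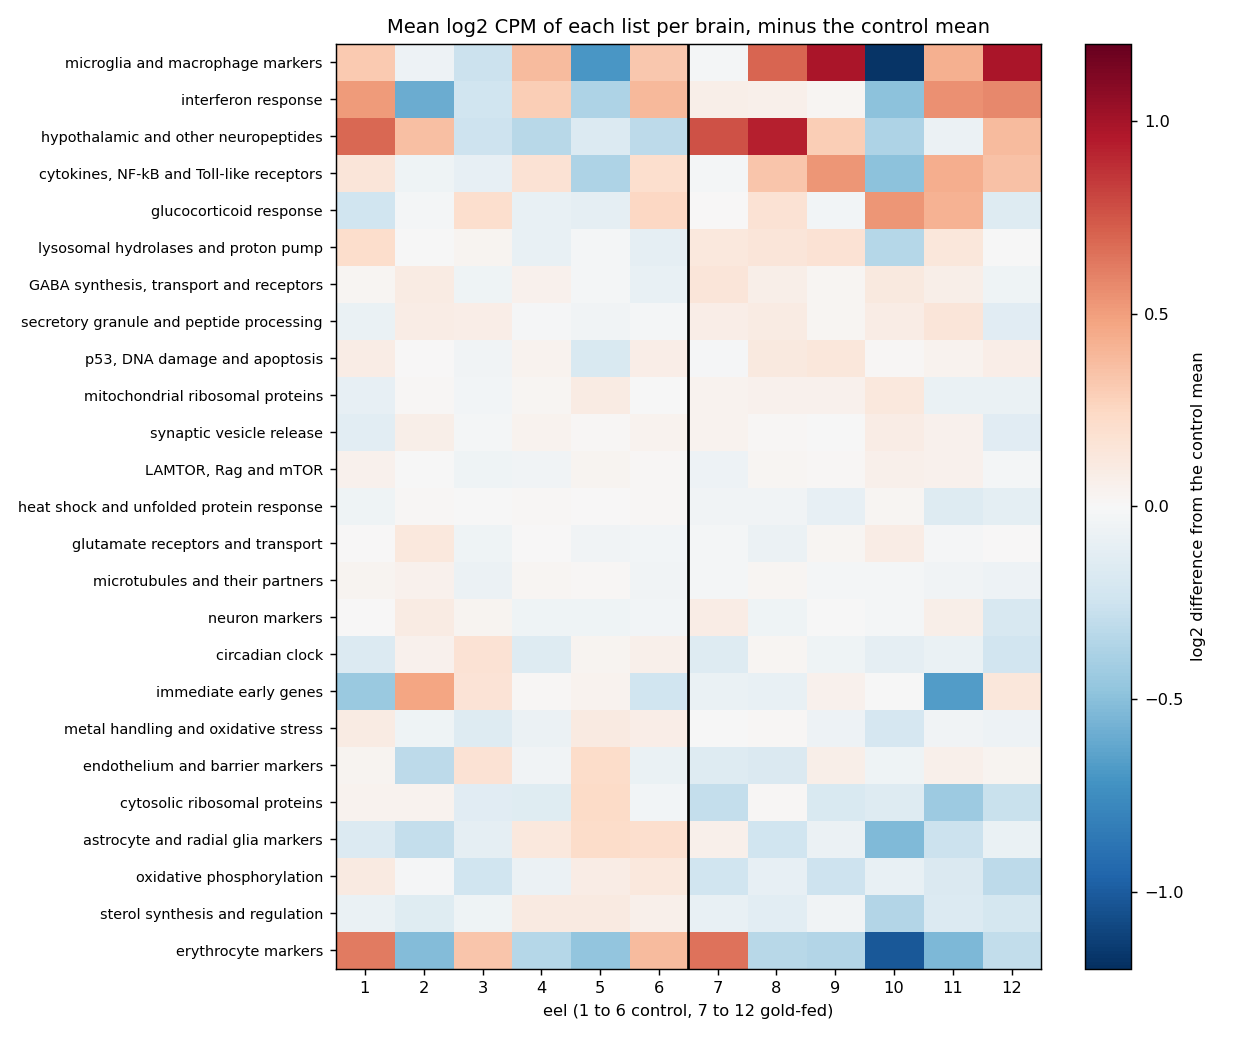
Mean log2 CPM of each list with at least 10 contigs in each of the 12 brains, minus the mean of the 6 control brains (colour, log2 units). Rows are ordered by list median and columns are eels, with the line dividing control from gold-fed. In gold-fed brain 10 the microglial and erythrocyte rows are the lowest of all brains. The rows of cytosolic ribosomal proteins and of oxidative phosphorylation are mostly negative across gold-fed brains.

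Variation between brains was then described without the group labels. The first 3 principal components of log2 CPM held 16.41%, 13.18% and 12.6% of the variance, and no difference between the groups passed on them (two-sided exact permutation p 0.9394, 0.1212 and 0.7922). Each was led by 1 or 2 brains, with gold-fed brain 10 at 141.93 on the first, gold-fed brain 7 at 130.49 on the second, and control brains 4 and 1 at 114.32 and -88.63 on the third. The fourth component, with 9.838% of the variance, differed in mean score between the groups, which overlapped. Control brains lay between -39.85 and -7.17, and 5 gold-fed brains between 15.01 and 88.47, while gold-fed brain 7 lay at -21.18 among the controls (exact permutation p 0.004329, adjusted over 4 components 0.01732, smallest possible p 0.002165). Without control brain 1 the component most like it by contig loadings had an exact permutation p of 0.08009. Without gold-fed brain 12 the match was loose, with a loading correlation of 0.64 (exact permutation p 0.01948).

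**Figure D5:**
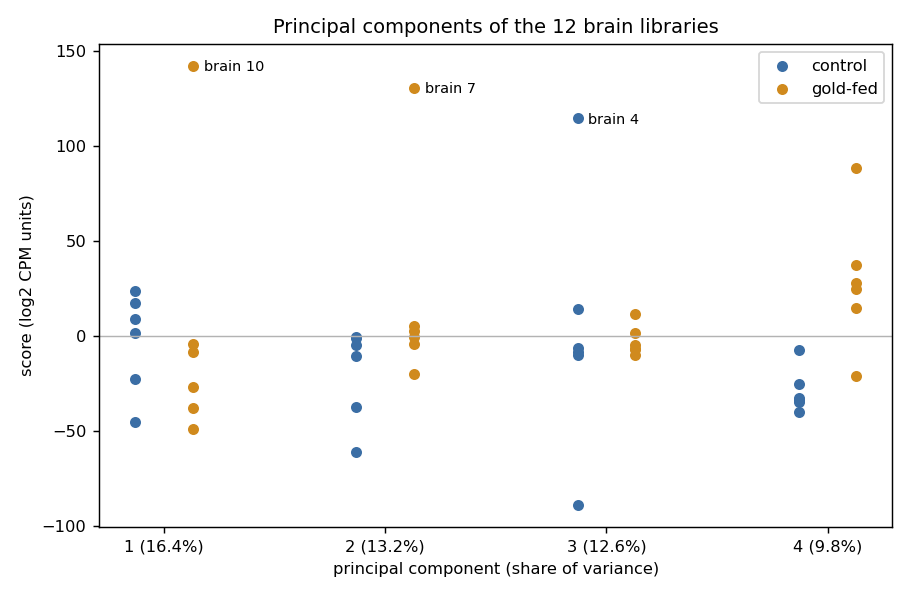
Scores of the 12 brains (vertical axis, log2 CPM units) on principal components 1 to 4 (horizontal axis, with each component's share of variance). Points are brains, control in blue and gold-fed in orange. Brains 10, 7 and 4 lie far out on components 1, 2 and 3, and component 4 has 5 of 6 gold-fed brains above 0 and all control brains below 0.

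The response of the brain was last set against that of the liver in a fit of all 24 libraries. The responses differed for 3 of 50455 contigs (0.00595%). The contig agpat3.1.2, for an acyltransferase that builds phosphatidic acid, had a brain log2 fold change of 0.01 and a liver log2 fold change of 1.55 (difference brain minus liver -1.50, edgeR adjusted p 0.0143). For contig_02561 the values were 0.31 and -2.25 (difference 2.59, adjusted p 0.0376). The third, the pigment granule GTPase rab38, had 714 and 790 reads in all in control and gold-fed brains and 0 and 19 reads in livers, so its difference of -6.45 rests on 19 reads (adjusted p 0.00929). With eel as a replicate block, which matches the brain and liver of each animal, 1 contig passed, contig_02561 (adjusted p 0.044), and the adjusted p was 0.072 for agpat3.1.2 and 0.296 for rab38. For LOC106611841.2.3 the difference between tissues did not pass (-0.88, SE 1.04, edgeR adjusted p 0.965). With 0 reads in all control livers and 0 to 10 in gold-fed livers, this cannot tell whether the tissues responded alike.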

How the data were processed

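Brain and liver RNA of 12 eels was sequenced, and the authors deposited a table of raw counts for assembled contigs. Its values are whole, and library totals differ, so no normalization by the authors was seen. RNA was isolated on columns and made into TruSeq libraries, per the labels' protocols. BWA 0.7.12 and SAMtools 1.1 were used, per the submitters' processing notes. No source used here describes the assembly and annotation, how reads were counted, strandedness or filters. All 24 columns matched samples by their descriptions.

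Brain counts were tested with edgeR 4.0.16 in R 4.3.3 (TMM scaling, filterByExpr by group, quasi-likelihood F test, no covariate, 12 libraries, Benjamini-Hochberg over 49830 contigs, threshold 0.05, two-sided), and standard errors were derived from F. Normalised CPM use TMM factors. Copy usage was tested with diffSpliceDGE over contigs that share a label. Components of log2 CPM were tested by exact permutation (924 arrangements). Brain and liver responses were compared in a fit of 4 group means. Brain and liver pair by animal, since the labels give each library its individual, and the fit with eel as a replicate block was the alternative. Other alternatives were DESeq2 1.42.0, limma-voom (limma 3.58.1), library totals, other count filters, thinned reads, a depth covariate, sums by label, Simes adjustment and each brain left out. Scripts were tested on simulated data. No pair of brains of a group was a duplicate (lowest chi-square per degree of freedom 66.7).

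Genes named are the contigs that passed, the 12 contigs with a gene name and the smallest p on each side, up to 3 of smallest p in each list, contigs sharing a label with those that passed or with the first 4 in each direction, the 5 named labels of smallest copy usage p, and up to 2 unnamed contigs per direction. Other labels that passed for copy usage were named after their values were seen. The members and lists were chosen with earlier results of these data known. Liver copy usage and components without 1 brain were added after the data were seen. Names are those of the table, 52.8% of which equal a RefSeq gene symbol for this eel, and no sequences were used. Some list members are not reported here.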

Additional observations from a re-analysis of the deposited data

Results flagged for a closer look

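In 11 of 108 groups of 6 brains checked (contigs named by p and gene lists), 1 brain lay far from the other 5, with a gap to its nearest neighbour that made up most of the group's range and passed Dixon's criterion. For independent groups of normally spread values chance gives about 1 in 20. The groups here share the same brains, and contigs were named by p on these values, so that rate cannot measure an excess. Among control brains these were brain 4 for snapc5 (64.4 CPM, the lowest) and for appl2 (1.08 CPM, the highest), brain 2 for tspo.2.2 (24.8 CPM, the highest), brain 5 for rab24.1.4 (0.44 CPM, the highest) and brain 1 for klc2.2.3 (90.2 CPM, the highest). In gold-fed brains it was brain 12 for ar-beta (56.9 CPM, the highest).

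By mean log2 CPM of a list, control brain 2 stood apart for glutamate receptors and transport (4.42, the highest) and control brain 1 for heat shock and the unfolded protein response (3.31, the lowest). Gold-fed brain 11 stood apart for immediate early genes (2.67, the lowest). Gold-fed brain 10 stood apart, as the lowest, for lysosomal hydrolases and the proton pump (4.28) and for metal handling and oxidative stress (2.88).

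The log2 responses of brain and liver differed, as brain minus liver, by -1.50 for agpat3.1.2, by 2.59 for contig_02561 and by -6.45 for rab38. The last rests on 19 reads in gold-fed livers and 0 in control livers. With eel as a replicate block the call was lost for agpat3.1.2 (edgeR adjusted p 0.072) and rab38 (0.296) and kept for contig_02561 (0.044).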

How the results depend on the processing

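The call of LOC106611841.2.3 was kept with DESeq2, limma-voom, library totals, each count filter, thinned reads, the depth covariate and without each brain in turn. The number of contigs that passed was 178 with DESeq2 and 0 when counts were summed by label, and otherwise 1 to 4 when a brain was left out (2 without control brain 5 or gold-fed brain 8, 4 without gold-fed brain 10). The 22 labels with different copy usage became 14 with at least 1 CPM in 6 brains, 2 with the Simes adjustment, and between 5 (without gold-fed brain 11) and 28 without 1 brain, with 10 without control brain 1, 6 and 12 without control brains 5 and 6, and 7 and 12 without gold-fed brains 7 and 12. Component 4 had exact permutation p between 0.002165 and 0.08009 without 1 brain, above 0.05 only without control brain 1. For 105 contigs, which take in those with a brain fold change in the report, 1954 comparisons with an alternative kept direction and side of the threshold and 28 crossed to pass, 26 of them with DESeq2. All but 1 of these contigs were short of the threshold from the start, so keeping their side says little about stability. The direction turned for per3.5.5 (-0.07 with the depth covariate, -0.10 without control brain 4) and for RS20.2.2 (0.00 without control brain 5). No paired analysis was possible within brain because control and gold-fed eels share no number. With eel as a replicate block, the contigs whose response differed between brain and liver fell from 3 to 1.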

Other observations

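Summing counts by label before the test brought forward genes not described above, named here after their values were seen, and none passed in edgeR (adjusted p 0.578). Higher values in gold-fed brains were found for UCP2, a mitochondrial carrier protein, with means of 51.9 CPM in controls against 70.8 CPM (log2 fold change 0.45, SE 0.10), and for mettl5, a methyltransferase of ribosomal RNA (0.25, SE 0.06). Lower values were found for kcnj2, an inwardly rectifying potassium channel (3.67 and 2.21 CPM, -0.74, SE 0.18), for omg, a glycoprotein of myelin (27.1 and 19.5 CPM, -0.47, SE 0.11), for the collagen col16a1 (-0.32, SE 0.08) and for pla2g12b (-0.52, SE 0.12).

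More contigs passed without gold-fed brain 10 than with all brains. Without it, 4 contigs rose in edgeR. They were LOC106611841.2.3 and 3 others without a gene name, with log2 fold changes of 1.03 to 1.20 and adjusted p of 0.012 to 0.0133, against 0.162 to 0.579 with all brains.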
